A study of Mus musculus with 6 samples.

Results

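Keratins are the intermediate filament proteins of epithelial cells. The counts of every gene whose symbol reads Krt followed by a number and at most 1 letter were taken from the lacrimal gland bud of mouse embryos, which gave 52 keratin genes among the 23420 gene symbols listed. They comprised 27 type I and 24 type II keratins and 1 gene, Krt222, left without a type. Each was placed by textbook knowledge in an epithelial class, with 6 simple, 3 basal stratified, 10 suprabasal, 4 corneal or mucosal and 26 hair keratins, and 3 keratins in no class. The study asked what the Pea3 family of ETS transcription factors does in the budding gland. RNA-seq was performed on lacrimal gland epithelium that laser capture had removed from frozen E14.5 embryos of mixed strain background. The titles of the 3 Control samples read WT, and the study describes the controls of its RNA-seq as Le-Cre. Its methods name both Le-Cre animals and animals heterozygous for the Pea3, Erm and Er81 alleles as controls in general. The 3 Pea3 TKO samples were Le-cre, Pea3-/-, Ermfl/fl, Er81fl/fl. By the account of the study both groups thus carried Le-Cre, which expresses Cre in the conjunctival and lacrimal gland epithelium. Pea3 (Etv4) was therefore missing from the whole embryo and from every stage, whereas Erm (Etv5) and Er81 (Etv1) were removed only where Le-Cre had been active. The labels number the samples within each group but do not say whether each came from a separate embryo, so that p-values measure the spread between these samples.

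A keratin filament is an obligate heteropolymer, in which each acidic type I protein pairs with a basic type II protein. Simple epithelia and ducts use mainly Krt8 with Krt18, often with Krt7 and Krt19. The basal layer of stratified epithelia uses Krt5 with Krt14, and Krt15 is a second type I partner there. Cells that leave the basal layer of skin switch to Krt1 with Krt10, stressed or migrating stratified cells add Krt6 with Krt16 and Krt17, mucosal lining such as the conjunctiva carries Krt4 with Krt13, and the corneal epithelium is known by Krt12. Which keratins a cell transcribes is thus a standard readout of its epithelial type.

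For 3 keratins of the main results, the sequence before a RefSeq start is shown on the GRCm38.p6 build, 5′ to 3′ on the strand of the gene. Krt5 and Krt14 are the partners of the basal class, the largest class of keratin counts in the mutants, and Krt23 was the keratin that fell. The first window is chr15:101712906-101713155 on the minus strand, the second chr11:100206031-100206280 on the minus strand, and the third, trimmed to 233 bases so that it ends before the annotated exons, chr11:99493138-99493370 on the minus strand. GENCODE M21 places the Krt14 gene from 100203162 to 100207548, so that the Krt14 window lies inside the gene as annotated there. It is therefore not the sequence before the first annotated base of Krt14. Capitals mark GGAA or its reverse complement TTCC, the core that ETS factors, including the Pea3 family, are known to bind.
Krt5: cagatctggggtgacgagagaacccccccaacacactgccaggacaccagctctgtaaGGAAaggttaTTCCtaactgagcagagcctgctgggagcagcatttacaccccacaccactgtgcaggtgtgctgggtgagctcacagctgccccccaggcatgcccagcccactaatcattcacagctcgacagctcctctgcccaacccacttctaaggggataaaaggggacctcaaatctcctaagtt
Krt14: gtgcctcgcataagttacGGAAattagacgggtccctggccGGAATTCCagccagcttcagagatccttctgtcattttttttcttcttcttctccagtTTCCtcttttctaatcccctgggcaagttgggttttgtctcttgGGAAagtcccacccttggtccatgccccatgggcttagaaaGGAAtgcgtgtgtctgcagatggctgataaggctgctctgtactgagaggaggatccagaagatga
Krt23: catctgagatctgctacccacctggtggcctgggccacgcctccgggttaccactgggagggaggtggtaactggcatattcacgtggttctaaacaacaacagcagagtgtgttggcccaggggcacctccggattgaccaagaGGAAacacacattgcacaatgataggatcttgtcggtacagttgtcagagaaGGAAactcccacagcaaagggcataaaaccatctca
The Krt14 window held 6 such cores and the Krt5 and Krt23 windows 2 each. The core is short, and 93.5% of the 250-base windows before 32851 RefSeq starts held it on either strand, against 30 of the 35 keratins with a window (85.7%). The longer form CCGGAA was present in the Krt14 window, inside the annotated gene, and in that of no other keratin, against 12.0% of all windows. AGGAAG, which contains the core, was present in the windows of 10 of 35 keratins (28.6%) against 29.5%. A TATAAA box was found before 17 of the 35 keratins (48.6%), against 12.4% of all windows. On the both-strand search neither TGANTCA nor GCCNNNGGC, the AP-1 and AP-2 motifs, was more frequent before keratins than elsewhere, with 1 and 4 of the 35 against 6.75% and 13.7% of windows. These are letters in a window, and binding was not measured in these samples.

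Each sample had between 14194775 and 17860140 counts, at which 3 counts correspond to between 0.169 and 0.21 CPM. CPM here is the count per 1000000 of the library size normalised by the TMM method of edgeR, and all means are given ± SD with n = 3. The transcripts of the 3 targeted genes were lower in every Pea3 TKO sample than in every Control sample, for example 88.2, 152 and 177 CPM against 961, 1010 and 1202 CPM for Etv5. Epithelial markers were abundant in all samples. Their sum over 6 genes was 2571 to 2809 CPM in Control and 3569 to 3975 CPM in Pea3 TKO. Of these 6, 5 rose, beside 13.6% of all tested genes. Several samples stood apart. Control 1 had more of most stratified keratins than Control 2 and Control 3, as described below. Of the 8 mesenchymal markers, Lum and Dcn passed the test as increased, beside the same 13.6% of all tested genes. The 8 markers summed to 399 and 558 CPM in Pea3 TKO 1 and Pea3 TKO 2, but to 11.5 CPM in Pea3 TKO 3. In Control 1 to 3 they summed to 14.7, 20.8 and 113 CPM. The 4 Y-linked genes summed to 136 to 175 CPM in Control and 139 CPM in Pea3 TKO 3, but to 0.445 and 0.21 CPM in Pea3 TKO 1 and 2. Lens crystallins and other lens genes reached 826 CPM in Control 2 and at most 267 CPM elsewhere. Of the 5 endothelial markers Tie1 and Emcn had no count in any sample, Cdh5 had 1, Kdr was at 1.40 and 2.38 CPM in Pea3 TKO 1 and 2 and at 0 elsewhere, Pecam1 was at most 3.19 CPM, in Control 3, and the list summed to 0 to 3.19 CPM in Control and 0 to 2.87 CPM in Pea3 TKO. The 4 blood markers in the tables, none of which passed the test, summed to 220 CPM in Pea3 TKO 3, mostly from the embryonic globin Hbb-y at 204 CPM, against 46.9 and 55.6 CPM in Pea3 TKO 1 and 2 and 31.7 to 101 CPM in Control, with Hba-a1 at 0 in every sample. The part of these differences in the results was not tested. A fold change is also given without a sample where leaving out that sample moved it by over 1.5 times or changed its call. In these bulk samples, fewer cells of a type and less RNA per cell cannot be told apart.

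Nearly every keratin that could be tested was higher in Pea3 TKO. Of the 52 keratins, 18 had enough counts for the edgeR quasi-likelihood test, and of these 16 rose and 1 fell at a Benjamini-Hochberg adjusted p threshold of 0.05 over 13087 tested genes. Among all tested genes, 13.6% rose and 11.3% fell. The median log2 fold change of the tested keratins was 3.16, against 0.01 over all tested genes. The values of 17 tested keratins did not overlap between the groups with Pea3 TKO on top, as was the case for 22.5% of all tested genes. Krt4, Krt12, Krt13, Krt16 and Krt33b would not have passed the low-count filter on their Control samples alone. Of these, all but Krt4 were under its minimum of about 0.628 CPM in every Control sample, so that they could enter the test only by being higher in Pea3 TKO, and Krt4 was under it in Control 3. Of the 13 others, 12 rose and 1 fell. The decreased keratin was Krt23, and the tested keratin that did not pass was Krt33b. With Pea3 TKO 1 and 2, which had hardly any Y-linked counts and more mesenchymal marker counts, left out, Pea3 TKO 3 alone was set against Control. In this fit the lone mutant sample is assumed to vary as the Control samples do, and Krt8, Krt12, Krt14 and Krt18 rose and Krt23 fell, while 2.28% of all genes rose.

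**Figure D1:**
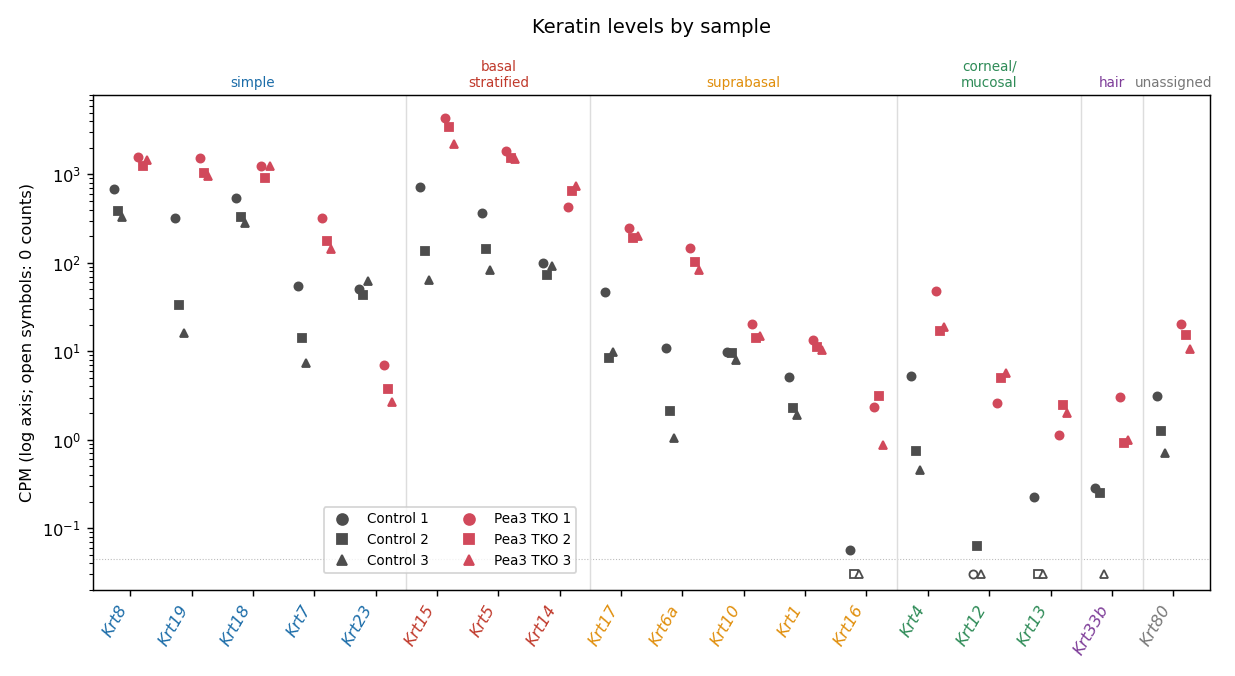
CPM of the 18 tested keratins in each sample on a log axis, with grey symbols for Control, red symbols for Pea3 TKO, a circle, square or triangle for replicates 1, 2 and 3, and open symbols for samples with 0 counts. The 3 Pea3 TKO samples lie above the 3 Control samples for every keratin but Krt23, where they lie below, and Control 1 is above the other Control samples for most stratified keratins.

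Keratins took 0.29%, 0.117% and 0.0952% of all counts in Control 1 to 3 and 1.22%, 0.945% and 0.85% in Pea3 TKO 1 to 3. The mean was 0.167% ± 0.107 in Control and 1.006% ± 0.194 in Pea3 TKO, which is 6.02 times as much, and the groups did not overlap. The make-up of these counts differed as well. Simple keratins made up 56.5%, 67.9% and 72.9% of the keratin counts in Control 1 to 3 and 39.5%, 36.0% and 44.0% in Pea3 TKO 1 to 3. Basal stratified keratins made up 40.6%, 29.9% and 24.7% in Control and 56.1%, 60.1% and 51.9% in Pea3 TKO. The simple class was thus the largest in every Control sample and the basal class in every Pea3 TKO sample, with Control 1 nearest to the mutants. This order changed when single genes were left out or moved. Without Krt15 the simple class was the largest in the mutants too, with 62.6%, 57.03% and 59.2% against 30.6%, 36.9% and 35.3% for the basal class, and with Krt19 counted as basal the basal class was the largest in Control 1, with 51.6% against 45.5%. These shares have no test, since they sum over members chosen with results known. Dividing each count by the length of the longest coding transcript left the picture as it was, with 67.8% ± 8.5 simple and 29.9% ± 8.1 basal in Control against 41.4% ± 4.4 and 54.6% ± 4.5 in Pea3 TKO. Suprabasal keratins held 2.18% ± 0.303 of the counts in Control and 3.56% ± 0.129 in Pea3 TKO, and corneal or mucosal keratins 0.101% ± 0.0756 and 0.334% ± 0.0888. Hair keratins held 0.0853% ± 0.0343 in Control and 0.0606% ± 0.0318 in Pea3 TKO, and their shares overlapped.

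**Figure D2:**
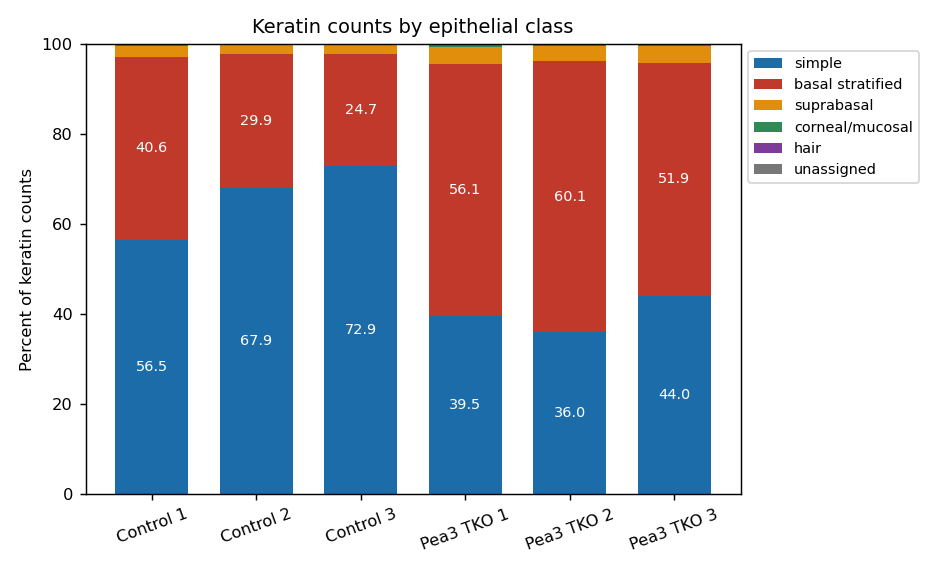
Percent of the keratin counts of each sample that fell in each epithelial class, as stacked bars that sum to 100, with the percent of the simple and basal stratified classes written in. Simple keratins fill between 56.5% and 72.9% of the bar in Control and between 36.0% and 44.0% in Pea3 TKO.

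Krt8 and Krt18, the pair that builds the filaments of simple epithelia, had the highest Control means of all keratins per length of transcript, although in Control 1 Krt15 was above them, at 423 CPM per kb against 346 and 377. They reached 238 and 267 CPM per kb in Control and 727 and 783 CPM per kb in Pea3 TKO. Krt8 was at 678, 387 and 333 CPM in Control 1 to 3 and at 1581, 1240 and 1450 CPM in Pea3 TKO 1 to 3. All mutant values were above all Control values, and Krt8 rose with a log2 fold change of 1.61 (SE 0.24, adjusted p = 0.0016). Krt18 was at 542, 327 and 281 CPM in Control and at 1236, 913 and 1229 CPM in Pea3 TKO (log2 fold change 1.55, SE 0.23, adjusted p = 0.0017). Among the increased keratins only Krt10 had a smaller log2 fold change than this pair. Their joint share of the keratin counts was 41.8%, 60.2% and 63.9% in Control and 23.8%, 22.9% and 31.2% in Pea3 TKO. Of the 100-base stretches of the Krt8 transcript, 16.9% also occur in other annotated transcripts, chiefly the pseudogene Krt8-ps, and how the counting treated reads with several matches is not given in the sources used here.

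Krt7 and Krt19, which mark ductal and other glandular epithelia, had larger fitted fold changes than Krt8 and Krt18. Krt19 was at 322, 33.5 and 16.1 CPM in Control 1 to 3 and at 1535, 1045 and 953 CPM in Pea3 TKO 1 to 3. Control 1 was 13.0 times the mean of the other Control samples, yet every mutant sample was at least 2.97 times Control 1. The log2 fold change was 3.25 (SE 0.90, adjusted p = 0.026), and this was 5.57 without Control 1. Krt19 lost the call without Control 2 (adjusted p = 0.082), without Pea3 TKO 1 (0.080) or without Pea3 TKO 2 (0.061). Krt7 was at 54.7, 14.1 and 7.35 CPM in Control and at 320, 175 and 143 CPM in Pea3 TKO (log2 fold change 3.06, SE 0.63, adjusted p = 0.0073), and this was 4.31 without Control 1. Krt20, a marker of intestinal and other specialised simple epithelia, had too few counts to test, with 19, 7 and 4 counts in Control and 0, 8 and 0 in Pea3 TKO.

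Krt23, a divergent type I keratin of glandular and other simple epithelia, moved the other way. It was at 50.6, 43.5 and 62.7 CPM in Control 1 to 3 and at 6.99, 3.78 and 2.70 CPM in Pea3 TKO 1 to 3. The highest mutant value was far below the lowest Control value, and the log2 fold change was -3.54 (SE 0.34, adjusted p = 1.7e-04). The Control mean was 11.6 times the mutant mean. Control 1, which had more of most other keratins, lay between the other Control samples for Krt23. In Control, Krt23 supplied 1.73%, 3.67% and 6.52% of the keratin counts, and in Pea3 TKO between 0.0314% and 0.059%. Leave-one-out fits gave fold changes from -4.02 to -3.27.

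The basal stratified keratins all rose. Krt5, the type II partner of the basal layer, was at 363, 145 and 83.2 CPM in Control 1 to 3 and at 1854, 1532 and 1506 CPM in Pea3 TKO 1 to 3. The lowest mutant sample was 4.14 times the highest Control sample, and the log2 fold change was 3.05 (SE 0.45, adjusted p = 0.0014), and this was 3.84 without Control 1. Krt14, its usual type I partner, was at 99.9, 73.2 and 91.6 CPM in Control and at 433, 651 and 746 CPM in Pea3 TKO. Control 1 did not stand apart for Krt14, which rose with a log2 fold change of 2.79 and the smallest SE of the tested keratins (SE 0.21, adjusted p = 4.3e-05). Krt15, the other type I keratin of basal cells and a marker of progenitors in hair follicle and limbus, was at 720, 138 and 63.1 CPM in Control and at 4357, 3462 and 2212 CPM in Pea3 TKO. Its log2 fold change was 3.44 (SE 0.75, adjusted p = 0.0099), and this was 5.05 without Control 1. Per kb of transcript, Krt15 ranked between 1 and 8 among 21777 genes in the mutant samples, and between 96 and 2539 in Control.

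Krt14 and Krt15 differed in how they varied among samples. Their transcripts are of almost the same length, and Krt15 had 7.21, 1.88 and 0.689 times the counts of Krt14 in Control 1 to 3 and 10.1, 5.32 and 2.97 times in Pea3 TKO 1 to 3. The ranges overlapped. Within the mutants, the sample with most Krt15 had least Krt14. The share of Krt14 in the keratin counts was 6.37% ± 3.06 in Control and 6.42% ± 2.55 in Pea3 TKO, whereas that of Krt15 was 14.3% ± 9.4 and 33.1% ± 6.4, and that of Krt5 was 11.1% ± 2.1 and 16.5% ± 0.94. Control 1 and Pea3 TKO 3 were close for Krt15, with 24.7% and 25.7%.

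The inducible keratins of stratified cells rose as well, from low levels in Control. Krt6a, a type II keratin of wounded and fast-growing stratified epithelium, was at 10.9, 2.12 and 1.04 CPM in Control 1 to 3 and at 146, 101 and 83.9 CPM in Pea3 TKO 1 to 3. The log2 fold change was 4.53 (SE 0.66, adjusted p = 0.0014), and this was 6.11 without Control 1. Krt17, its type I partner in appendages and activated keratinocytes, was at 46.7, 8.35 and 9.82 CPM in Control and at 250, 189 and 199 CPM in Pea3 TKO (log2 fold change 3.29, SE 0.56, adjusted p = 0.0032), and this was 4.55 without Control 1. Krt16, another type I partner of Krt6a, had 1, 0 and 0 counts in Control and 37, 45 and 15 counts in Pea3 TKO. Its summed counts, corrected for library size, were 101 times higher in Pea3 TKO with a 95% counting interval of 17.8 to 4042 (exact binomial, counting error only), and its adjusted p was 0.0053 for a fitted log2 fold change of 6.26 that depends on the prior count and was 8.06 without Control 1. Krt6b, the near copy of Krt6a, had 1 count in Control and 16 in Pea3 TKO and was not tested. Of the 100-base stretches of Krt6a, 33.96% also occur in other annotated transcripts, chiefly Krt6b, so that the counts of either copy are uncertain. For Krt16 the share was 24.3%, chiefly with Gm11597.

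The keratins of epidermal differentiation were low in all samples. Krt10, the type I keratin of the spinous layer, was at 9.81, 9.60 and 8.00 CPM in Control 1 to 3 and at 20.2, 14.3 and 14.7 CPM in Pea3 TKO 1 to 3, with the smallest change of any increased keratin (log2 fold change 0.84, SE 0.26, adjusted p = 0.039). This call was lost when any 1 of the 6 samples was left out, with adjusted p from 0.0501 to 0.125. Krt1, its type II partner, was at 5.07, 2.31 and 1.89 CPM in Control and at 13.5, 11.1 and 10.3 CPM in Pea3 TKO (log2 fold change 1.90, SE 0.43, adjusted p = 0.011). As a share of the keratin counts, the differentiation subgroup held 0.51%, 1.003% and 1.03% in Control and 0.288%, 0.281% and 0.299% in Pea3 TKO. Krt78, a type II keratin of differentiating epidermis, had 0 counts in Control and 7, 12 and 8 in Pea3 TKO, at least 9.40-fold higher against a floor of 3 counts over the group, and was not tested. The other 3 untested members of this subgroup, Krt2, Krt9 and Krt77, had 0, 0 and 6 counts in all. Of the 5 terminal epidermal markers in the tables only Sprr1a could be tested and rose, Tgm3 had no count, and their sum was 0.26 to 1.07 CPM in Control and 7.81 to 16.3 CPM in Pea3 TKO.

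Of the 4 corneal and mucosal keratins, Krt12, Krt13 and Krt4 rose, each from at most 5.24 CPM in Control, beside 13.6% of all tested genes. None of the 3 would have passed the low-count filter on Control alone. The number of calls in this class was thus partly set by the filter. Krt12, the type I keratin by which the corneal epithelium is known, had 0, 1 and 0 counts in Control 1 to 3 and 41, 72 and 96 counts in Pea3 TKO 1 to 3. The summed counts were 218 times higher in Pea3 TKO, with a 95% counting interval of 38.8 to 8662, and the fitted log2 fold change was 7.30 (SE 1.02, adjusted p = 0.0011), and this was 9.15 without Control 2, which held the only Control count. The level reached was low, at 2.60, 5.03 and 5.64 CPM in Pea3 TKO. An annotated antisense RNA covers 54.4% of the Krt12 exons. With libraries that do not mark strand its reads and those of Krt12 cannot be told apart. The same limit holds for Krt6a, where the antisense RNA Gm49428 covers 19.5% of the exons. Annotated genes on the other strand also overlap the exons of Krt5, Krt7, Krt8, Krt10 and Krt80, by 1.09% to 6.91%. Krt4, the type II keratin of mucosal lining, was at 5.24, 0.748 and 0.455 CPM in Control and at 47.6, 17.1 and 18.7 CPM in Pea3 TKO (log2 fold change 3.67, SE 0.79, adjusted p = 0.0093), which was 5.51 without Control 1 and 3.04 without Pea3 TKO 1. Krt13, its type I partner, had 4, 0 and 0 counts in Control and 18, 35 and 34 in Pea3 TKO. Its log2 fold change was 4.43 (SE 1.17, adjusted p = 0.022), and this was 7.87 without Control 1. The call for Krt13 was lost without Control 2 (adjusted p = 0.082), Control 3 (0.083), Pea3 TKO 2 (0.080) or Pea3 TKO 3 (0.055). The mucosal keratin Krt76 had no count in any sample.

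Hair keratins stayed near the limit of detection. Of the 26 in this class, 7 had no count in any sample, 18 others were not tested, and the summed counts of the class were 59, 18 and 7 in Control 1 to 3 and 149, 32 and 114 in Pea3 TKO 1 to 3, which overlap. Krt33b, a type I keratin of the hair shaft, was the single member tested, with 5, 4 and 0 counts in Control and 48, 13 and 17 in Pea3 TKO (log2 fold change 3.15, SE 1.07, adjusted p = 0.056), and the fold change was 2.36 without Pea3 TKO 1. Krt79, a type II keratin of the follicle infundibulum, had 0, 0 and 2 counts in Control and 17, 0 and 47 in Pea3 TKO, so that its counts overlapped. Krt35, of the hair shaft, had none in Control and 2, 10 and 8 in Pea3 TKO, at least 6.96-fold higher against the same floor. Krt33a, Krt42, Krt72, Krt75 and Krt83 had 20 to 35 counts in all, and each overlapped between the groups. Of the 52 keratin-associated protein (Krtap) genes in the tables, 49 had no count and the rest 14 counts together. Outside the classes, Krt80, a widely expressed type II keratin, was at 3.10, 1.25 and 0.715 CPM in Control and at 20.4, 15.2 and 10.6 CPM in Pea3 TKO (log2 fold change 3.18, SE 0.53, adjusted p = 0.0028), and this was 3.96 without Control 1.

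Since filaments need both types, the balance of partners was examined as the log2 ratio of type II to type I CPM with 0.5 CPM added, in 10 pairs. The balance of Krt8 to Krt18 was steady, at 0.27 ± 0.05 in Control and 0.35 ± 0.10 in Pea3 TKO. Krt5 to Krt14 was at 1.86, 0.98 and -0.14 in Control 1 to 3 and at 2.10, 1.23 and 1.013 in Pea3 TKO 1 to 3, which overlap. Krt5 to Krt15 was at -0.17 ± 0.72 and -0.99 ± 0.38 and overlapped too. In 4 pairs the groups did not overlap. Krt8 to Krt19 was at 2.97 ± 1.69 in Control and 0.30 ± 0.28 in Pea3 TKO, and per kb of transcript the mean of the plain ratio was 9.23 and 1.003. Krt6a to Krt17 was at -2.18 ± 0.51 in Control and -0.97 ± 0.24 in Pea3 TKO, and Krt1 to Krt10 at -1.52 ± 0.55 and -0.47 ± 0.11. Krt6a to Krt16 was at 2.79 ± 1.41 and 5.47 ± 0.60, but there the Control ratio was set by the added 0.5 CPM. The direction of this difference rests on the added value too. Without it the fitted log2 fold change was larger for Krt16 (6.26) than for Krt6a (4.53). For these 4 pairs the two-sided exact permutation test over samples gave p = 0.10, the smallest value that 3 samples against 3 allow, and 0.25 after Benjamini-Hochberg adjustment over the 10 pairs. The remaining pairs, Krt7 to Krt19, Krt4 to Krt13 and Krt5 to Krt12, overlapped (exact p from 0.20 to 0.90). Over all keratins, the ratio of type I to type II counts was 1.60, 1.15 and 1.24 in Control and 1.97, 2.03 and 1.66 in Pea3 TKO, and per kb of transcript 1.76 ± 0.31 and 2.51 ± 0.27.

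**Figure D3:**
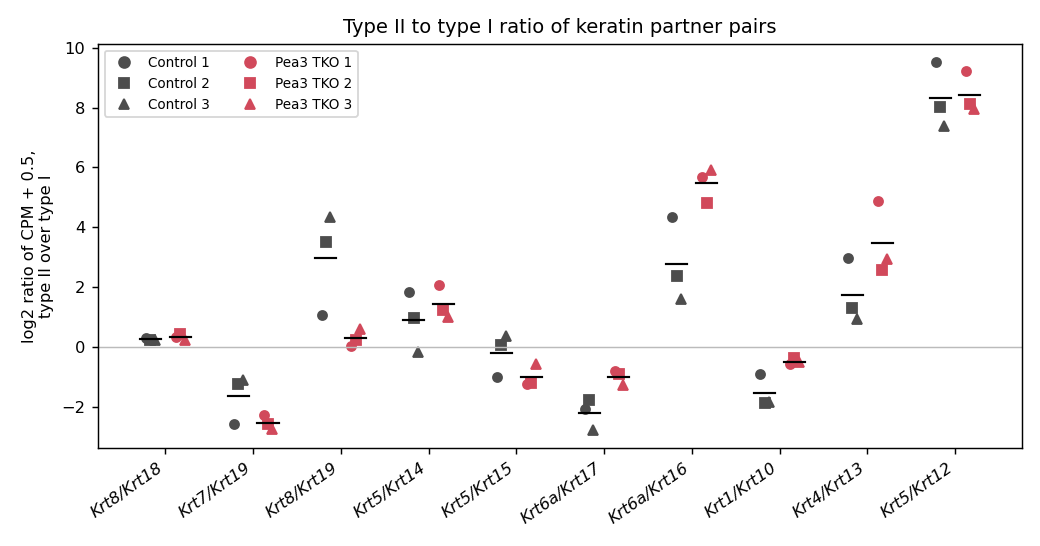
Log2 ratio of the CPM (with 0.5 added) of a type II keratin over that of its type I partner in each sample, for 10 pairs, with a bar at each group mean and symbols for samples as in the plot of levels. Krt8/Krt18 stays between 0.24 and 0.44 in all samples, whereas Krt8/Krt19 lies between 1.08 and 4.33 in Control and between 0.04 and 0.60 in Pea3 TKO.

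The keratin genes lie in a pair of clusters, as GENCODE M21 places them on GRCm38. Chromosome 11 holds 27 of them from 99232761 to 100269871, of which 26 are type I and 1 is Krt222, and chromosome 15 holds 24 from 101347444 to 102032027, with 23 type II genes and Krt18 (the last gene had no match). Of the type I genes, 11 were tested and 9 rose, and of the type II genes 7 were tested and all 7 rose, beside 13.6% of all tested genes. Without the 5 keratins that would not have passed the filter on Control alone, 6 of 7 type I and 6 of 6 type II genes rose. Along chromosome 11 the increased keratins Krt13, Krt15, Krt19, Krt14, Krt16 and Krt17 lie together at one end, where the neighbour Krt9 was not tested. Krt10 and Krt12 rose at the other end, and Krt23, which fell, lies 2 genes beyond Krt12 with Krt20 between them. The genes of hair keratins and of keratin-associated proteins between these stretches had few counts or none. Of the 36 listed gene symbols inside the chromosome 11 cluster that are not keratins, 34 had no count and the highest total was 6 counts. Annotated genes that were not listed, such as the antisense RNA over Krt12, are not covered by this. Etv4 lies on the same chromosome from 101769742 to 101785371, which is 1499871 bases past the last keratin. The mutants carry the null allele on both copies in a mixed background. Sequence linked to that allele and the loss of Pea3 itself therefore cannot be told apart for the chromosome 11 genes. Whether such sequence plays a part for the keratins of chromosome 15 was not tested.

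**Figure D4:**
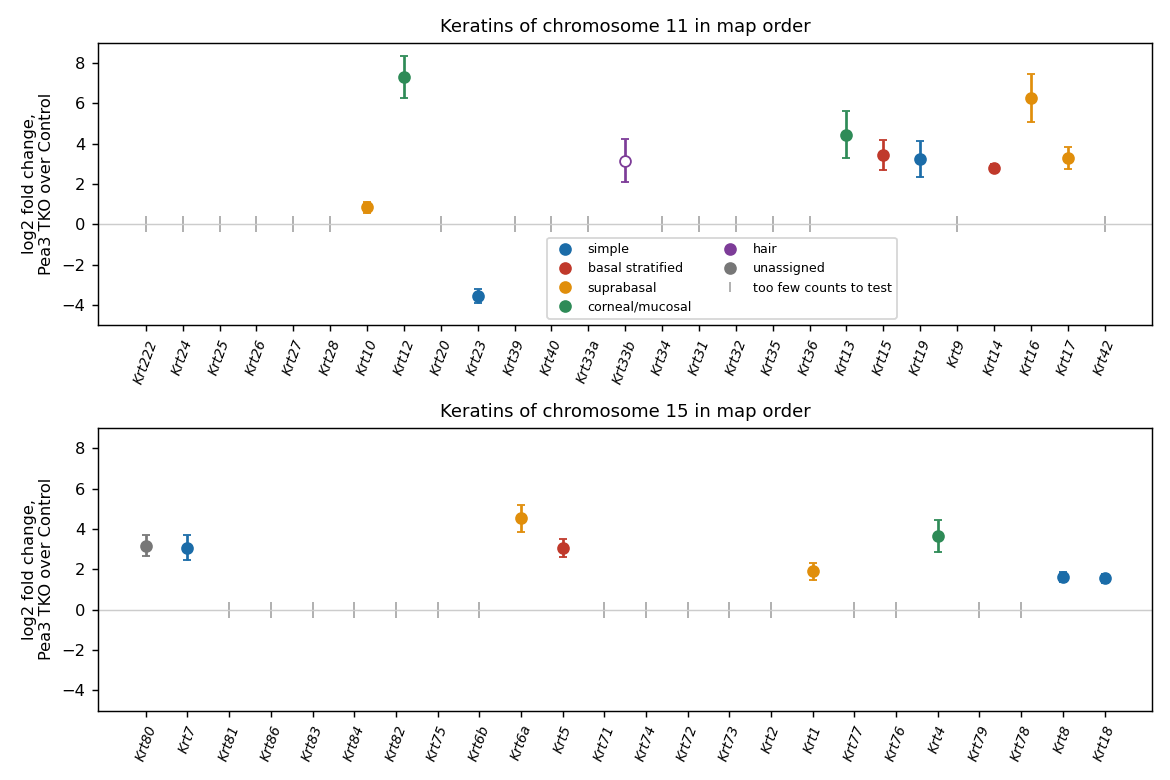
Log2 fold change of each tested keratin (bars, ± SE) in map order along chromosome 11 and chromosome 15, coloured by class, with an open symbol where the test was not passed and grey ticks for keratins with too few counts. On chromosome 11 Krt23 is the only point below 0, at -3.54, and all 8 tested genes of chromosome 15, including the type I gene Krt18, lie above 0.

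Control 1 had more of the same keratins than the other Control samples. Of the 18 tested keratins, 12 were at least 2-fold above the mean of Control 2 and Control 3 in Control 1, against 6.40% of all tested genes. Of these 12, Krt13 and Krt16 had only 4 and 1 counts in Control 1 and 0 in Control 2 and Control 3. Among keratins with counts in Control 2 or Control 3, the farthest apart were Krt19 at 13.0 times, Krt4 at 8.72 times, Krt15 at 7.17 times and Krt6a at 6.92 times. Krt14 was at 1.21 and Krt23 at 0.952 times. Krt4, Krt12, Krt13, Krt16 and Krt33b would not have passed the low-count filter on Control alone. For the other increased keratins, the lowest mutant sample was 1.45 (Krt10) to 7.67 (Krt6a) times the highest Control sample. Without Control 1, 15 of the 19 keratins then tested rose (14.6% of all genes did), and Krt10 and Krt33b were among those that did not pass. With a covariate for the Y-linked counts, 8 keratins rose, namely Krt5, Krt6a, Krt8, Krt12, Krt14, Krt17, Krt18 and Krt80, with 4.06% of all genes increased in that fit. With Pea3 TKO 3 alone, the fitted fold changes differed from those with all samples by at most 1.22 on the log2 scale, for Krt16.

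**Figure D5:**
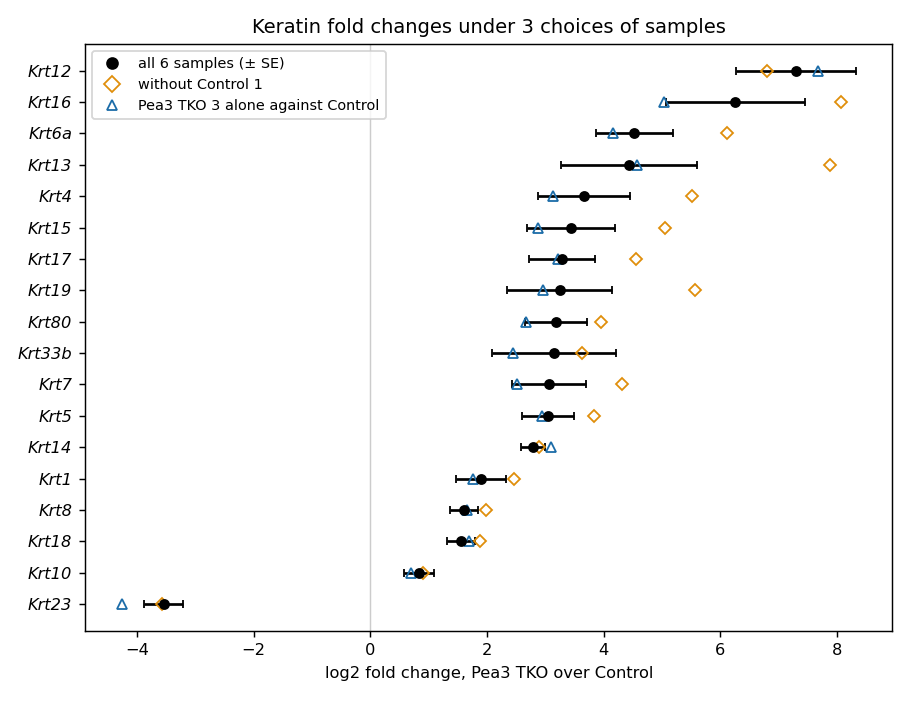
Log2 fold change of the 18 tested keratins with all 6 samples (black points, bars ± SE), without Control 1 (orange diamonds) and with Pea3 TKO 3 alone against Control (blue triangles). Leaving out Control 1 moves Krt19 from 3.25 to 5.57 and Krt15 from 3.44 to 5.05, and Krt23 stays below -3.5 in each case.

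The genes that anchor keratin filaments were examined beside them. Of 13 linkers of keratin filaments to desmosomes and other structures, all tested, 8 rose and none fell, with a median log2 fold change of 1.07, while 13.6% of all tested genes rose and 11.3% fell. The count of 0 for decreases came from the edgeR test, and DESeq2 called 1. Evpl (envoplakin), a cross-linker of the cornified envelope, was at 8.91, 5.23 and 6.37 CPM in Control 1 to 3 and at 68.8, 47.9 and 29.9 CPM in Pea3 TKO 1 to 3 (log2 fold change 2.83, SE 0.33, adjusted p = 4.8e-04). Pkp1 (plakophilin 1), a desmosomal plaque protein of stratified epithelia, rose by more, from 6.88 ± 5.58 to 112 ± 18 CPM (log2 fold change 4.004, SE 0.47, adjusted p = 5.0e-04). Dsp (desmoplakin), which ties keratins to desmosomes, had a log2 fold change of 1.44 and Fam83h, which organises keratin filaments, one of 1.28. Of the intermediate filament genes outside the keratins, 10 were tested, of which 2 rose and 1 fell, with a median of 0.07. These counts are near the shares of all tested genes, 13.6% and 11.3%. Lmna (lamin A/C) rose from 86.9 ± 44.7 to 272 ± 26 CPM and Nes (nestin) from 104 ± 6 to 166 ± 26 CPM, while the lens filament gene Bfsp2 fell from 3.06 ± 0.83 to 0.379 ± 0.335 CPM.

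Among 10 transcription factors known to act in keratinocytes or cornea, 4 rose and 1 fell, with a median log2 fold change of 0.58, beside 13.6% and 11.3% of all tested genes. Pax6, which the ocular surface ectoderm needs and which is known to drive Krt12, rose from 210 ± 29 to 451 ± 31 CPM (log2 fold change 1.10, SE 0.13, adjusted p = 5.0e-04). Pax6 was also counted among the epithelial markers above. Grhl3 was at 83.4, 30.4 and 33.6 CPM in Control 1 to 3 and at 211, 185 and 152 CPM in Pea3 TKO 1 to 3 (1.89), and Klf5 and Ovol1, further regulators of stratified epithelium, rose with log2 fold changes of 1.58 and 2.03. Like most stratified keratins, Grhl3, Klf5 and Ovol1 were highest in Control 1 among the Control samples. Tfap2c fell with a log2 fold change of -0.45 (adjusted p = 0.026). Trp63, which stratified epithelia need to form, was looked at after its values were seen, and was at 179 ± 36 CPM in Control and 174 ± 62 CPM in Pea3 TKO (adjusted p = 0.92).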

How the data were processed

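The authors sequenced amplified RNA from 3 Control and 3 Pea3 TKO samples and deposited raw read counts per gene symbol, 1 table per sample, without normalisation. The submitters' processing notes name STAR 2.5.2b, featureCounts 1.5.0-p3, DESeq and mm10, and do not state strand or the treatment of multiply matched reads.

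Genes were kept by filterByExpr of edgeR 4.0.16 (R 4.3.3), normalised by TMM and tested with its quasi-likelihood test on condition alone, with Benjamini-Hochberg adjustment. SE is log2 fold change over root F, taken as positive. Lengths are those of the longest coding transcript of GENCODE M21, which matched 51 of 52 keratins, and 35 matched a RefSeq promoter window. The fit was tested on simulated data.

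Members, classes, pairs and lists were chosen with earlier results of these data known. All tested keratins are named, untested ones with at least 20 counts, and at most 4 called genes per comparison list and direction by smallest p. Exceptions are stated. The alternatives were other size factors and filters, DESeq2 1.42.0, a replicate block, a Y-linked covariate, other classes or lengths, and each sample left out.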

Additional observations from a re-analysis of the deposited data

How the results depend on the processing

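The number of increased keratins was 16 of 18 tested with the relative log expression factors, where 13.6% of all genes rose. It was also 16 of 18 with the upper quartile factors (14.3%) and with the replicate number as a block (13.5%). Without a low-count filter it was 16 of 42 (10.8%), and with a filter of 1 CPM in 3 samples 15 of 16 (14%). With DESeq2 it was 19 of 29 (14.6%), with Krt33b, Krt78 and Krt79 added. With each sample left out it was 13 to 15, with 18 to 21 keratins tested and 8.42% to 14.6% of all genes increased. It was 8 with the Y-linked covariate and 4 with Pea3 TKO 3 alone, a comparison chosen after seeing the data. With Pea3 TKO 3 alone fewer samples entered the fit and only Control gave its spread, and for the covariate the cause was not tested. The number of decreased keratins was 1 in every fit listed. Over 250 recomputed keratin fold changes none changed sign, 216 kept their side of the threshold, 33 lost it and 1 gained it. Deviations of same-numbered samples of the groups correlated at a mean r of 0.03 (-0.04 to 0.13). Those of other pairs correlated at a mean of -0.01 (-0.11 to 0.13). This cannot decide whether the numbers stand for a pairing. With the block 16 keratins rose as before, but some fold changes moved. The log2 fold change of Krt19 went from 3.25 to 4.39 and that of Krt15 from 3.44 to 4.15. For Krt14 it stayed near, from 2.79 to 2.77.

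The difference in the keratin share of all counts, 0.839 percentage points, was 0.73 to 0.917 with each sample left out and 0.53 without Krt15. The differences in share of the keratin counts were -26.0 for simple, 24.3 for basal stratified, 1.38 for suprabasal and 0.233 percentage points for corneal or mucosal keratins. With each sample left out they were -30.6 to -22.4, 20.8 to 28.7, 1.24 to 1.54, and 0.184 to 0.276. Without Krt15 they were -17.05, 13.8, 2.77 and 0.379. With Krt19 counted as basal the basal difference was 30.9, and with Krt17 counted as basal the suprabasal difference was 0.341. The difference for hair keratins was -0.02 and stayed between -0.04 and -0.01. The log2 ratio of Krt5 to Krt12 differed by 0.12 between the groups and by -0.34 to 0.72 with each sample left out, and with 2 CPM added in place of 0.5 it differed by 1.66, since Krt12 was near 0 in Control. With 2 CPM added the difference of Krt6a to Krt17 was 0.77 in place of 1.21. Depth limits the hair, corneal and inducible keratins that had under 5 counts in Control, whose fold changes have wide counting intervals.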
